A study of Mus musculus with 12 samples.

Results

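The genes described here were 9 major urinary protein genes, *Mup1*, *Mup3*, *Mup7*, *Mup9*, *Mup11*, *Mup16*, *Mup17*, *Mup20* and *Mup21*, which were chosen by symbol from the 54532 genes of the liver table. Livers came from 12 male C57BL/6J mice, 3 in each of 4 groups, that had been fed for 26 weeks from 5 weeks of age. ND-fed mice ate the normal diet CE-2. Control mice ate the high-fat diet HFD32, and HYA-treated and LA-treated mice ate HFD32 to which 1% HYA or 1% LA had been added. LA is linoleic acid, and HYA (10-hydroxy-cis-12-octadecenoic acid) is a hydroxylated product that lactic acid bacteria of the gut make from it by adding water across a double bond. The comparisons ask whether the supplements moved the hepatic transcripts of mice on the high-fat diet.

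Major urinary proteins are small lipocalins, barrel-shaped carriers that the hepatocyte secretes into the blood and that the kidney passes into the urine, where they hold and slowly release volatile pheromones. Male mice make far more of them than females do. Their genes depend on the pulsed growth hormone secretion of males, which acts in the liver through the transcription factor STAT5, and also respond to glucocorticoids, thyroid hormone and nutrition. *Mup20* encodes darcin, a protein that acts as a male pheromone by itself.

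All 9 genes are protein-coding and lie on the minus strand of chromosome 4 (GRCm38). *Mup7* (ENSMUSG00000073842, 60066469 to 60070475), *Mup9* (ENSMUSG00000078686, 60418046 to 60421952), *Mup1* (ENSMUSG00000078683, 60498012 to 60501960) and *Mup11* (ENSMUSG00000073834, 60658466 to 60662411) stand toward one end of the cluster. *Mup16* (ENSMUSG00000078675, 61515592 to 61519531) and *Mup17* (ENSMUSG00000096688, 61591929 to 61595871) stand near its middle. *Mup20* (ENSMUSG00000078672, 62050234 to 62054158), *Mup3* (ENSMUSG00000066154, 62083476 to 62087342) and *Mup21* (ENSMUSG00000066153, 62147932 to 62150863) are neighbours at the other end. The values are those of whole genes, so that exons and untranslated regions were not separated. The table also holds 39 further *Mup* rows, and 48 in all, of which 21 are coding genes and 27 pseudogenes.

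Near-identical members share reads. When the annotated transcripts were cut into windows of 150 bases, the nominal read length, *Mup3* and *Mup21* had no window that also occurred in another gene. *Mup20* shared 31.1% of its windows, all with the pseudogene *Mup-ps19*. The other 6 members shared from 40.4% (*Mup17*) and 52.5% (*Mup1*) through 64.2% (*Mup9*), 64.8% (*Mup11*) and 67.1% (*Mup7*) to 75.8% (*Mup16*), in each case with 12 to 15 other genes. Only 4 or 5 of these 12 to 15 genes were themselves members. How the authors assigned a read with several matches is not given in the sources used here. The split of reads is therefore uncertain, both among these 6 genes and between them and genes outside the members. The sum over the members is given beside the single genes, but it does not remove the uncertainty toward genes outside the members. The sum over all *Mup* rows is given further below.

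The start regions of the members show how alike these genes are. A RefSeq window (GRCm38.p6) of 250 bases before to 50 bases after the start was at hand for 6 members, *Mup3*, *Mup7*, *Mup9*, *Mup11*, *Mup17* and *Mup21*. In each of them the letters ATCAAT, the core bound by the hepatocyte factor HNF6, occurred at 2 places that were 62 or 63 bases apart. The stretch around both copies is printed on the gene's own strand with these letters in capitals, because all 6 windows share the motif. It also shows which members are nearly identical in this stretch. Shared reads cannot be read from it, since *Mup3* and *Mup21*, which resemble each other here, had no transcript window in common with another gene.
*Mup9*: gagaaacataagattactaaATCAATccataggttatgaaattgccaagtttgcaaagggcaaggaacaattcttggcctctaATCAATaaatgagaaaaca
*Mup11*: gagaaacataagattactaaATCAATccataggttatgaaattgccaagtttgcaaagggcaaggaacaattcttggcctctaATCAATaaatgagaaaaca
*Mup17*: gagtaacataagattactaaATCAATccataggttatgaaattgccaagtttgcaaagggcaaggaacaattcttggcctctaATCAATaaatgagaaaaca
*Mup7*: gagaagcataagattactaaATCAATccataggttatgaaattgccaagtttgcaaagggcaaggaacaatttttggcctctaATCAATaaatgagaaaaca
*Mup3*: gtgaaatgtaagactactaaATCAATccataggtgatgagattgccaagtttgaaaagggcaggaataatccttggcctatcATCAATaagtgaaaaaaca
*Mup21*: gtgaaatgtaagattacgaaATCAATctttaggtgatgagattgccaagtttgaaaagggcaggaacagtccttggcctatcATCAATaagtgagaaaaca

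The stretches lie at chr4:60422090-60422191 for *Mup9*, chr4:60662502-60662603 for *Mup11*, chr4:61595962-61596063 for *Mup17*, chr4:60070476-60070577 for *Mup7*, chr4:62087399-62087499 for *Mup3* and chr4:62150917-62151017 for *Mup21*. Those of *Mup9* and *Mup11* were identical over 102 bases, and *Mup17* differed from them at 1 base and *Mup7* at 2. *Mup3* and *Mup21* were 93.1% identical to each other and 83.3% to 86.3% identical to the other 4. The first copy began at position -219 in *Mup9*, -211 in *Mup17*, -188 in *Mup11*, -162 in *Mup3*, -156 in *Mup21* and -82 in *Mup7*, counted from the RefSeq start, while the distance between the copies stayed the same to within 1 base. Of all 32851 windows in the same table, 7.54% held ATCAAT on either strand and 0.694% held 2 or more copies. The 6 windows are copies of a common ancestor and are no independent cases.

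Other letters were searched on both strands in the same way, and no match overlapped another. CCAAT occurred in 3 of the 6 windows (*Mup7*, *Mup11* and *Mup17*), against 37.4% of all windows, and TGTTCT, part of the site that the glucocorticoid and androgen receptors bind, in 2 (*Mup3* and *Mup21*), against 19.0%. TTCNNNGAA, the STAT5 motif, was in none of the 6 and in 8.30% of all windows. TATAAA (13.6% of all), TTGCNNAA for C/EBP (10.8%) and GTTAAT for HNF1 (7.10%) were likewise in none. The CCAAT match began at -118 in *Mup7*, -224 in *Mup11* and -247 in *Mup17*, the last close to the window edge. In *Mup9* the shared stretch lies farther from the start (-219), so its window reaches less far beyond the stretch. A motif missing from a window can lie beyond its edge, which was not searched. These letters describe the windows and show no binding.

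The level of a gene is given as FPKM, fragments per kilobase of gene length scaled by the authors with 1 factor per mouse, which allows genes of different length to be compared. This factor was not the number of fragments on genes. It was below that number in every ND-fed mouse (1.757e+07 against 18443002 in mouse 1). In every control and LA-treated mouse it was above that number (2.150e+07 against 19558364 in control mouse 1). Between 17169064 and 25220880 fragments fell on genes in each mouse, and the smallest number behind a member's value was 16 fragments. Hepatocyte markers dominated every liver: 9 of the 10 genes listed were in the table, and they summed to 31123 to 46058 FPKM, whereas 4 adipocyte markers summed to at most 0.42 FPKM. The hepatocyte sum itself differed between groups, with 43974 to 46058 FPKM in ND-fed mice, 31123 to 34884 in control mice, 38518 to 39349 in HYA-treated mice and 33482 to 34398 in LA-treated mice. Of the 9 genes 1, *Hpx*, was higher in control mice (2411 to 2919 FPKM) than in ND-fed mice (1959 to 2191). *Alb* was the largest part of the sum, at 28483 to 30137 FPKM in ND-fed mice and 19066 to 21531 in control mice, so the sum mostly follows it. The 8 stellate cell and fibroblast markers ran the other way, from 33.8 to 44.0 FPKM in ND-fed mice and 74.4 to 97.9 in control mice to 59.2 to 74.0 in HYA-treated mice and 79.2 to 96.1 in LA-treated mice. The part of these shifts in the results that follow was not tested, and in whole liver fewer cells of a type cannot be told apart from less RNA per cell.

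By mean FPKM over all mice, *Mup3* ranked 11, *Mup20* 31, *Mup7* 40 and *Mup16* 75 among all genes of the table. In ND-fed mice the 9 genes summed to 10874, 14441 and 14711 FPKM, a mean of 13342 ± 2142 (SD, n = 3). Control mice were at 3443, 5235 and 4272 FPKM, with a mean of 4317 ± 897. HYA-treated mice were at 6407, 7046 and 9177 FPKM, with a mean of 7543 ± 1451. All HYA-treated mice thus stood above all control and all LA-treated mice and below all ND-fed mice. LA-treated mice were at 4754, 5040 and 4930 FPKM, with a mean of 4908 ± 144, within the range of control mice.

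**Figure D1:**
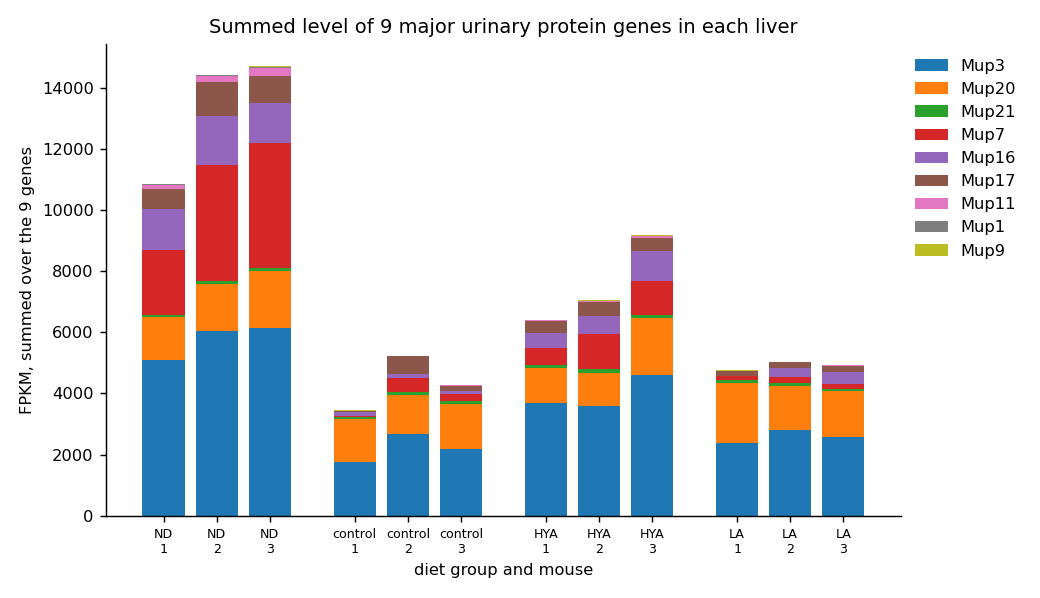
Stacked bars show FPKM summed over the 9 genes in each of the 12 livers, split by gene, with mice 1 to 3 of each diet group side by side. The 3 ND bars reach 10874 to 14711 FPKM, the HYA bars 6407 to 9177, and the control and LA bars 3443 to 5235, and *Mup3* is the tallest segment throughout.

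The family sum of control mice was 3.09-fold below that of ND-fed mice (a difference of -1.64 on the log2 scale). That of HYA-treated mice was 1.75-fold above control mice (0.81) and 1.54-fold above LA-treated mice (0.60), and 1.77-fold below ND-fed mice (-0.83). The ranges of the 3 mice did not overlap in any of these. LA-treated and control mice differed by 0.21 with overlapping ranges. A sum over members chosen with results known was given no test. In shares of all fragments on genes, the family took 1.28% ± 0.18 in ND-fed mice, 0.459% ± 0.084 in control mice, 0.767% ± 0.14 in HYA-treated mice and 0.522% ± 0.021 in LA-treated mice (SD, n = 3).

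Relative to the 9 hepatocyte markers, whose sum is mostly *Alb*, the family sum amounted to 29.5% ± 4.9 in ND-fed mice, 12.8% ± 2.1 in control mice, 19.4% ± 3.7 in HYA-treated mice and 14.4% ± 0.51 in LA-treated mice. On this measure, which was added after the values were seen, the difference between control and ND-fed mice was -1.20 and that between HYA-treated and control mice 0.59 on the log2 scale. The ranges remained apart in both comparisons.

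The members that resemble each other differed more in fold than the rest. The 6 genes that share sequence with one another summed to 5877 ± 1376 FPKM in ND-fed mice and 644 ± 496 FPKM in control mice, a 9.13-fold difference. *Mup3*, *Mup20* and *Mup21* together summed to 7465 ± 792 and 3673 ± 415 FPKM in the same mice, a 2.03-fold difference. Between HYA-treated and control mice the 2 parts differed by 3.27-fold and 1.48-fold. The make-up of the family differed with it: *Mup7* was 24.5% of the family sum in ND-fed mice, 5.04% in control mice, 12.4% in HYA-treated mice and 3.10% in LA-treated mice. *Mup20* was 12.0%, 33.6%, 17.9% and 33.5% in the same order.

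*Mup3* and *Mup20* gave the highest levels in control mice. *Mup3*, whose transcript has no shared window, was at 5106, 6039 and 6158 FPKM in ND-fed mice and at 1743, 2687 and 2169 FPKM in control mice. In HYA-treated mice it was at 3678, 3594 and 4620 FPKM and in LA-treated mice at 2387, 2806 and 2566 FPKM. The ranges of ND-fed, HYA-treated and LA-treated mice were separate, in that order, and LA-treated and control mice overlapped. *Mup20*, the darcin gene, was at 1384, 1546 and 1842 FPKM in ND-fed mice, at 1426, 1278 and 1493 in control mice, at 1165, 1082 and 1839 in HYA-treated mice and at 1967, 1441 and 1507 in LA-treated mice. All 4 ranges of *Mup20* overlapped with their neighbours, and its highest and lowest mice differed by 1.82-fold.

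*Mup21* came next, with 2.09-fold between its highest and lowest mice. It was at 93.7, 110 and 118 FPKM in ND-fed mice, 59.0, 82.9 and 81.0 in control mice, 97.7, 111 and 123 in HYA-treated mice and 89.0, 97.1 and 80.9 in LA-treated mice. Its HYA-treated and ND-fed mice overlapped, and all of both lay above all control mice.

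Among the 6 alike genes, *Mup7* had the highest level on the normal diet. It was at 2100, 3804 and 4097 FPKM in ND-fed mice, 23.0, 459 and 242 in control mice, 541, 1174 and 1118 in HYA-treated mice and 129, 180 and 148 in LA-treated mice. The HYA-treated mice stood alone between the ND-fed mice and the others, and control mouse 1 was about an order of magnitude below the rest of its group. *Mup16* was at 1352, 1598 and 1304 FPKM in ND-fed mice, 149, 120 and 104 in control mice, 511, 575 and 977 in HYA-treated mice and 15.4, 295 and 388 in LA-treated mice. Here LA-treated mouse 1 was the lowest of all 12 mice and the other two of its group lay above all control mice.

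*Mup17* was at 672, 1116 and 873 FPKM in ND-fed mice, 39.8, 587 and 170 in control mice, 367, 448 and 422 in HYA-treated mice and 152, 203 and 222 in LA-treated mice. The control mice spanned the HYA-treated and the LA-treated ranges completely. *Mup11* was lower in level and cleaner in order, with 125, 171 and 258 FPKM in ND-fed mice, 2.54, 15.9 and 9.98 in control mice, 38.9, 50.5 and 63.2 in HYA-treated mice and 11.0, 13.6 and 14.2 in LA-treated mice. ND-fed mice, HYA-treated mice and the remaining 6 mice formed separate ranges.

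*Mup1* and *Mup9* were the least abundant. *Mup1* was at 33.2, 43.0 and 47.2 FPKM in ND-fed mice, 0.47, 2.90 and 1.43 in control mice, 4.75, 7.87 and 6.69 in HYA-treated mice and 1.07, 2.22 and 1.84 in LA-treated mice. Its order was that of *Mup11*, with the same gaps between ranges. *Mup9* was at 6.23, 13.3 and 14.0 FPKM in ND-fed mice, 0.56, 1.81 and 1.03 in control mice, 3.54, 3.35 and 7.10 in HYA-treated mice and 1.63, 1.41 and 1.77 in LA-treated mice, so that ND-fed and HYA-treated mice overlapped through 1 mouse of each. Across the 9 genes the order of means was ND, HYA, LA, control in 5, ND, HYA, control, LA in 2 (*Mup7* and *Mup17*), and different in *Mup20* and *Mup21*.

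**Figure D2:**
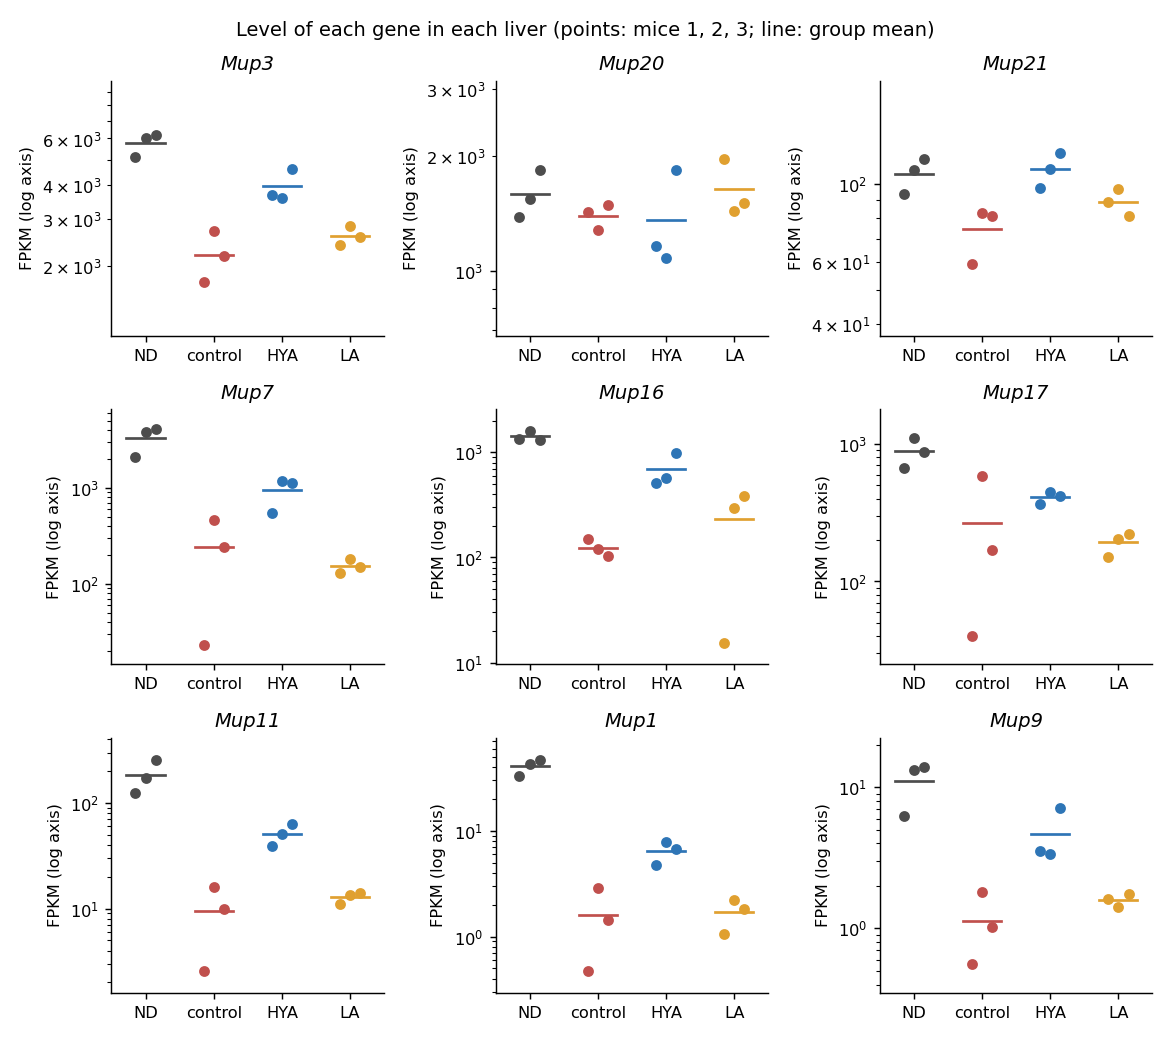
Each panel shows 1 gene, with FPKM on a log axis, points for mice 1, 2 and 3 of each diet group from left to right and a line at the group mean. The blue HYA points lie between the ND and the control and LA points in most panels, *Mup20* shows no such order, and single low points stand out in *Mup7* (control mouse 1, 23.0 FPKM) and *Mup16* (LA-treated mouse 1, 15.4 FPKM).

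Most of the family was lower on the high-fat diet. Relative to ND-fed mice, 7 of the 9 genes fell in control mice past both thresholds, an adjusted p-value of 0.05 and a log2 difference of 1, and none rose. Of all 11083 genes tested, 1.63% were called lower in this comparison and 3.88% in either direction. Every control mouse was below every ND-fed mouse in 8 of the 9 genes, which held in this direction for 25.7% of all genes tested. The median difference over the 9 genes was -2.48, against -0.04 over all genes tested, on the log2(FPKM + 1) scale, which understates the change of genes with low levels.

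The largest fitted difference was that of *Mup7*, which fell by 4.52 (SE 0.84, adjusted p = 0.00205, limma), with means 13.8-fold apart. *Mup11* fell by 4.36 (SE 0.47, adjusted p = 7.26e-05) and *Mup1* fell by 4.12 (SE 0.31, adjusted p = 6.99e-06). Their means were 19.5-fold and 25.7-fold apart. *Mup16* fell by 3.51 (SE 0.92, adjusted p = 0.0129), *Mup9* fell by 2.48 (SE 0.32, adjusted p = 0.000191) and *Mup17* fell by 2.44 (SE 0.70, adjusted p = 0.0201). *Mup3* fell by 1.41 with an SE of 0.15 (adjusted p = 7.57e-05), and its means were 2.62-fold apart. The call of *Mup17* was lost without ND-fed mouse 2 (adjusted p = 0.0657) and in a fit of the 2 groups alone (0.0795), over a range of 0.000576 to 0.0795 across the alternatives.

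The remaining 2 genes did not pass. *Mup21* differed by -0.53 (SE 0.14, adjusted p = 0.0133, limma), under the threshold on fold change. *Mup20* differed by -0.18 (SE 0.19, adjusted p = 0.508, 95% interval -0.60 to 0.25), and by 0.059 in the other direction when values were rescaled to TPM, in which every mouse has the same total.

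A few members were higher with HYA. In HYA-treated relative to control mice, 3 of the 9 genes rose past both thresholds, *Mup11*, *Mup1* and *Mup9*, and none fell, whereas 0.162% of all genes tested were called higher. The ranges of HYA-treated and control mice did not overlap in 7 genes, all higher with HYA, against 12.7% of all genes. *Mup11* rose by 2.55 (SE 0.47, adjusted p = 0.0292, limma), *Mup1* by 1.61 (SE 0.31, adjusted p = 0.0310) and *Mup9* by 1.39 (SE 0.32, adjusted p = 0.0478), and each was higher in every HYA-treated mouse. The means of these genes were 5.36-fold, 4.03-fold and 4.11-fold apart. The median difference over the 9 genes was 1.39, against 0.02 over all genes.

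The other members are given by their values. *Mup3* differed by 0.86 (SE 0.15, adjusted p = 0.0269, limma), under the threshold on fold change, and *Mup21* by 0.58 (SE 0.14, adjusted p = 0.0548). *Mup7* and *Mup16* had fitted differences close to that of *Mup11*, 2.68 and 2.41, but standard errors of 0.84 and 0.92 and adjusted p-values of 0.117 and 0.187. *Mup17* differed by 1.36 (SE 0.70, adjusted p = 0.331) and *Mup20* by -0.08 (SE 0.19, adjusted p = 0.885). The interval of the *Mup20* difference reached from -0.50 to 0.35.

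With 3 mice a group, single mice decided these calls. No member was called when control mouse 3 or any 1 of the HYA-treated mice was left out, 1 when control mouse 1 was left out and 6 when control mouse 2 was, and none in a fit of only HYA-treated and control mice. Of all 11083 genes tested, 5 were called higher and 5 lower without control mouse 1, and 36 and 32 without control mouse 2. The fit of only these groups called 0 of all genes. *Mup11* differed by 1.90 to 3.03 over all alternatives, *Mup1* by 1.25 to 2.32 and *Mup9* by 1.10 to 2.15, with adjusted p-values of 0.00789 to 0.151, 0.00762 to 0.151 and 0.0244 to 0.187.

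The same holds for the noisier genes. When control mouse 1 was left out, the difference of *Mup7* between HYA-treated and control mice was 1.42 in place of 2.68, and that of *Mup17* 0.38 in place of 1.36. When control mouse 2 was left out, *Mup17* differed by 2.30 with an adjusted p-value of 0.0236 (limma; 0.0236 to 0.781 over the alternatives). Leaving out LA-treated mouse 1, which takes no part in this comparison but in the shared estimate of the spread, cut the standard error of *Mup16* from 0.92 to 0.23 and took it past both thresholds (adjusted p = 0.00894, lowest of 0.00894 to 0.364).

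**Figure D3:**
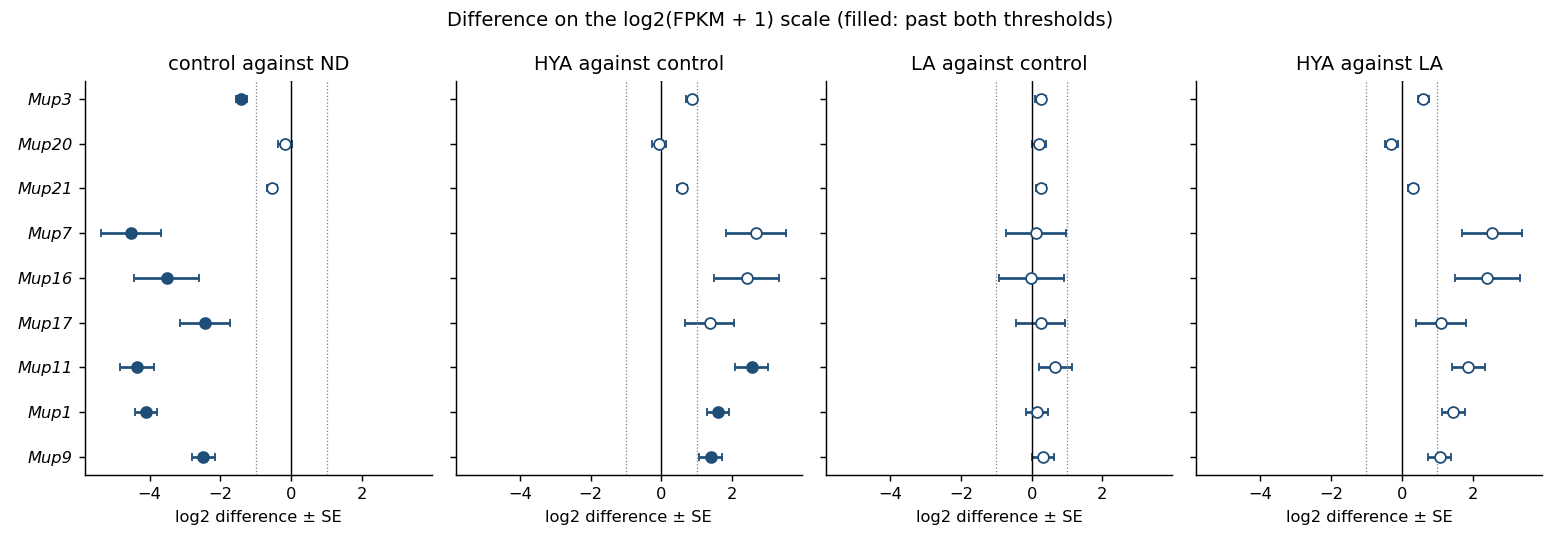
Points show the fitted difference of each gene on the log2(FPKM + 1) scale with its standard error in 4 comparisons, filled where both thresholds were passed, with dotted lines at -1 and 1. Filled points are 7 genes below 0 in control against ND, 3 above 0 in HYA against control, and none in LA against control or HYA against LA.

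LA was given at the same dose as HYA. In LA-treated relative to control mice, none of the 9 genes was called by limma, none had an unadjusted p-value under 0.05, none was called by voom on recovered fragments, and the ranges overlapped in all 9. Of all genes tested 0% were called in this comparison, 294 had an unadjusted p-value under 0.05, and the ranges were apart in 3.94% (higher) and 3.61% (lower). The median difference over the members was 0.25. The intervals were wide for *Mup7* (-1.73 to 1.99) and *Mup16* (-2.03 to 2.02), narrower for *Mup1* (-0.54 to 0.83), and narrow for *Mup3* (-0.09 to 0.59) and *Mup21* (-0.04 to 0.58). For *Mup11* the interval was -0.37 to 1.71, for *Mup9* -0.37 to 1.02, for *Mup17* -1.29 to 1.80 and for *Mup20* -0.21 to 0.64.

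HYA and LA were also compared directly. The HYA-treated mice were above every LA-treated mouse in 8 of the 9 genes, all but *Mup20*, which held for 14.8% of all genes tested. An unadjusted p-value under 0.05 was found in 7 of the 9 genes, against 1908 of all 11083 genes tested. No member passed both thresholds, as against 0.108% of all genes in either direction. The nearest was *Mup1*, which differed by 1.46 (95% interval 0.77 to 2.15, adjusted p = 0.0643, limma), followed by *Mup11* at 1.88 (0.84 to 2.92, adjusted p = 0.0835) and *Mup3* at 0.61 (0.27 to 0.95, adjusted p = 0.0844). *Mup7* differed by 2.55 (0.69 to 4.42) and *Mup16* by 2.42 (0.40 to 4.44), the latter by 0.96 without LA-treated mouse 1. *Mup20* differed by -0.29 (-0.72 to 0.13). *Mup1* and *Mup11* were called with voom on recovered fragments, and *Mup1*, *Mup7*, *Mup11* and *Mup17* in a fit of these 2 groups alone. Over all genes, voom called 15 higher and 38 lower of 14353, and the fit of these 2 groups 15 and 10 of 11083. Control mice enter only the shared spread here, and 3 members were called without control mouse 1 and 2 without control mouse 2. Of all 11083 genes, 15 were then called higher and 14 lower without control mouse 1, and 12 and 14 without control mouse 2.

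Several members stayed below the level of the normal diet with either supplement. Relative to ND-fed mice, *Mup1* (-2.51, adjusted p = 0.000417), *Mup11* (-1.81, adjusted p = 0.0246) and *Mup9* (-1.09, adjusted p = 0.0380) were called lower by limma in HYA-treated mice, 3 of 9 genes against 0.614% of all genes. Every HYA-treated mouse was below every ND-fed mouse in 6 of the 9, against 19.3% of all genes. Without ND-fed mouse 2 or 3 or HYA-treated mouse 1 or 2, 1 member was called, where 63 to 70 of all 11083 genes tested were called lower. In LA-treated mice 7 of 9 were called lower than in ND-fed mice, all but *Mup20* and *Mup21*, against 1.36% of all genes tested, and the ranges of these 7 were apart, against 26.5%. *Mup7* differed by -4.39 and *Mup3* by -1.15. The call of *Mup17* (-2.19, adjusted p = 0.0358, limma) was lost without any 1 of the ND-fed or LA-treated mice (adjusted p-values up to 0.104). These comparisons share their ND-fed mice with that of control mice and are not independent of it.

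The 9 genes differed in how much mice of a group differed. The SD of log2(FPKM + 1) within a group, averaged over the 4 groups, was 0.18 for *Mup21*, 0.19 for *Mup3* and 0.24 for *Mup20*. It was 0.40 for *Mup1* and *Mup9*, 0.55 for *Mup11*, 0.68 for *Mup17*, 0.86 for *Mup16* and 0.91 for *Mup7*. On this average the 3 genes with no window, or the fewest windows, in common with other genes had the smallest spread. Within single groups this order did not hold. In HYA-treated mice the SD was 0.15 for *Mup17* and 0.41 for *Mup20*, and in LA-treated mice 0.10 for *Mup9* and 0.12 for *Mup3*. It was 0.156 for *Mup16* and 0.167 for *Mup21* in ND-fed mice, and 0.256 and 0.270 in control mice. The highest averages rest in part on control mice (*Mup7*, 2.24) and on LA-treated mice (*Mup16*, 2.53). The family sum varied less than its noisiest members, with a pooled SD of 0.29 on the log2 scale between HYA-treated and control mice. Control mouse 1 was the lowest of its group in 7 of 9 genes and control mouse 2 the highest in 7, and ND-fed mouse 1 was the lowest of its group in 8.

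**Figure D4:**
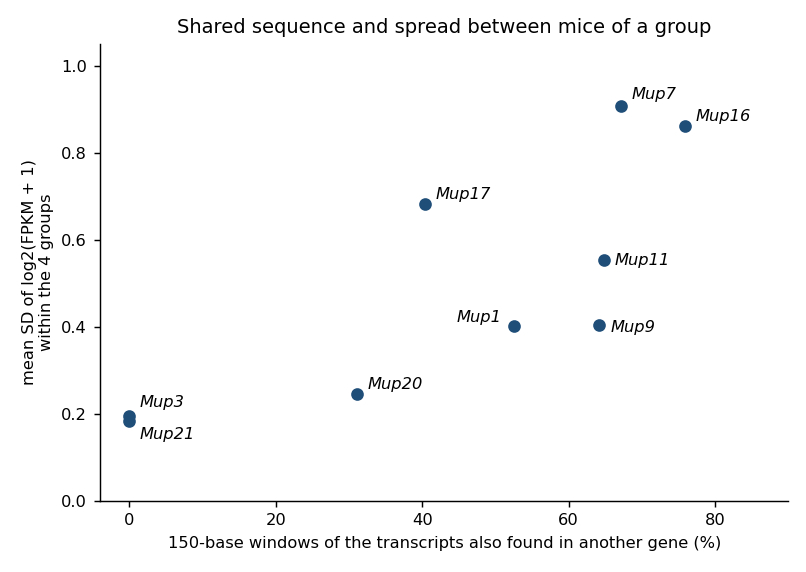
Each point is 1 of the 9 genes, plotted by the percentage of 150-base windows of its transcripts that also occur in another gene and by the mean within-group SD of log2(FPKM + 1). *Mup3*, *Mup21* and *Mup20* lie at the lower left (0% to 31.1%, SD 0.18 to 0.24) and *Mup7* and *Mup16* at the upper right.

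Of the 39 remaining *Mup* rows, 17 reached the mean level tested. In control relative to ND-fed mice 8 of the 17 were called lower and 1 higher, with a median of -1.22. Of all genes tested 1.63% were called lower and 2.25% higher. The 1 called higher, the pseudogene *Mup-ps10*, had 1 fragment in each ND-fed mouse and reached the mean level tested only through the other groups, so that it had to differ, and the counts and the median are descriptions. In HYA-treated relative to control mice none was called by limma, and voom on recovered fragments called 4. Over all 14353 genes that voom tested, 24 were called higher and 83 lower. An unadjusted p-value under 0.05 was found in 10 of the 17, against 2055 of all 11083 genes tested. Of the 17, 15 lay above 0, with a median of 0.86. The most abundant of them, *Mup12*, was named after its values were seen. It was at 1761, 2503 and 4047 FPKM in ND-fed mice, 41.5, 344 and 191 in control mice, 556, 798 and 1212 in HYA-treated mice and 106, 155 and 165 in LA-treated mice, the order of *Mup7*. The 9 members made up 71.1% to 88.3% of the sum over all *Mup* rows, and the sum over all rows differed by -1.86 between control and ND-fed mice and by 0.96 between HYA-treated and control mice on the log2 scale.

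Growth hormone reaches these genes through its receptor, the kinase JAK2 and STAT5, and the same pathway controls the IGF1 system in the liver. Of 17 genes listed for it, 15 were tested. Between control and ND-fed mice the median over the list was -0.11, against -0.04 over all genes tested. Of the 15, 1 fell, against 1.63% of all genes called lower. That gene was *Igfals*, the acid-labile subunit that stabilises IGF1 in plasma, which stood at 65.5, 62.1 and 64.1 FPKM in ND-fed mice and 20.1, 25.7 and 19.2 in control mice. It fell by 1.53 (SE 0.10, adjusted p = 2.23e-06, limma) with ranges apart. *Ghr*, the growth hormone receptor, and *Igf1* differed by -0.73 and -0.70 with adjusted p-values of 0.000159 and 0.000345 (limma), under the threshold on fold change. By adjusted p alone 4 of the 15 were lower and 1 was higher, against 2115 lower and 1795 higher of all 11083 genes tested. Differences above 0 were found in 6 of the 15.

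With HYA none of the 15 genes was called against control mice by limma or by voom. An unadjusted p-value under 0.05 was found in 6 of them, against 2055 of all 11083 genes tested. The median was 0.09, against 0.02 over all genes tested. *Igfals* was at 31.3, 33.3 and 32.7 FPKM in HYA-treated mice, above all control mice, and differed by 0.57 (adjusted p = 0.0205, limma). In LA-treated mice it was at 20.1, 23.4 and 20.8 FPKM. *Ghr* and *Igf1* differed by 0.34 and 0.36 between HYA-treated and control mice, with adjusted p-values of 0.0702 and 0.0764.

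Among 27 transcription factors and cofactors listed as regulators of *Mup* or sex-biased liver genes, 25 were tested. In control relative to ND-fed mice *Foxa3*, a forkhead factor of the hepatocyte, fell by 1.04 (SE 0.11, adjusted p = 7.25e-05, limma). No other was called, against 1.63% of all genes called lower. *Nr3c1*, the glucocorticoid receptor, and *Hnf4a*, a main hepatocyte factor, differed by -0.42 and -0.54 with adjusted p-values of 0.000428 and 0.000531 (limma). By adjusted p alone 7 of the 25 were lower and 2 were higher, against 2115 lower and 1795 higher of all 11083 genes tested. Differences above 0 were found in 10 of the 25. In HYA-treated relative to control mice none of the 25 was called by limma or by voom. Of these, 2 had an unadjusted p-value under 0.05, against 2055 of all 11083 genes tested. The 3 lowest p-values (limma) were those of *Nr3c1* (0.19, adjusted p = 0.122), *Onecut1* (1.16, adjusted p = 0.146) and *Rxra*, the retinoid X receptor (0.20, adjusted p = 0.339). *Onecut1* encodes HNF6, the factor whose letters were found in the start regions. It was at 10.7, 6.76 and 7.04 FPKM in HYA-treated mice, 2.82, 3.14 and 3.17 in control mice, 2.76, 2.37 and 3.02 in LA-treated mice and 15.6, 7.50 and 2.83 in ND-fed mice. Every HYA-treated mouse was above every control and LA-treated mouse, while the ND-fed mice ran from the level of control mice to above all HYA-treated mice. Ranges were apart in this direction in 12.7% of all genes tested against control mice and in 14.8% against LA-treated mice. Any link between *Onecut1* and the levels of the members was not tested.

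Sex-biased genes of the liver, which respond to the same hormone pattern, were counted for comparison. Of 28 male-biased genes listed, 26 were tested, and 23 fell in control relative to ND-fed mice, against 1.63% of all genes called lower. The median over the list was -1.92, against -0.04 over all genes tested. In HYA-treated relative to control mice 5 of the 26 rose and none fell, against 0.162% of all genes called higher. Their median was 0.57, against 0.02 over all genes tested. Of 29 female-biased genes 12 were tested. In control relative to ND-fed mice 8 of the 12 rose (median 1.84), where 2.25% of all genes were called higher. In HYA-treated relative to control mice 1 of the 12 fell (median -0.34), where 0.144% of all genes were called lower. A gene that reached the mean level tested only through the group where it is high had to differ, so these counts are descriptions. In LA-treated relative to control mice none of either list was called by limma or by voom. An unadjusted p-value under 0.05 was found in 3 male-biased and 1 female-biased genes, against 294 of all 11083 genes tested. Of the other lipocalins and plasma carriers 9 were tested. In control relative to ND-fed mice 3 of them were called higher, against 2.25% of all genes, and none was called lower. By adjusted p alone (limma) 5 were lower, as were 2115 of all 11083 genes tested, and the median over the 9 was -0.28. With HYA none of those 9 was called by limma or by voom. Against control mice 8 had an unadjusted p-value under 0.05, as did 2055 of all 11083 genes tested.

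The genes whose levels ran closest to the family sum were sought over all 12 mice. Likeness was the root-mean-square difference between the centred log2 levels of a gene and of the sum, so that 0 means the same profile. The nearest were *Cyp4f14*, a fatty acid hydroxylase (0.15), *Mug1*, which encodes the plasma protease inhibitor murinoglobulin (0.17), *Afmid*, an enzyme of tryptophan breakdown (0.17), *Cps1*, the first enzyme of the urea cycle (0.18), and *Abca8a*, an ABC transporter (0.18). *Cyp4f14* was at 123, 132 and 140 FPKM in ND-fed mice, 36.4, 49.2 and 49.8 in control mice, 73.0, 78.9 and 74.2 in HYA-treated mice and 45.9, 50.9 and 48.5 in LA-treated mice. Among the members, *Mup3* was nearest to the sum (0.13), of which it is the largest part, and *Mup7* farthest (1.51). These are descriptions over 12 mice that share 4 diets.

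**Figure D5:**
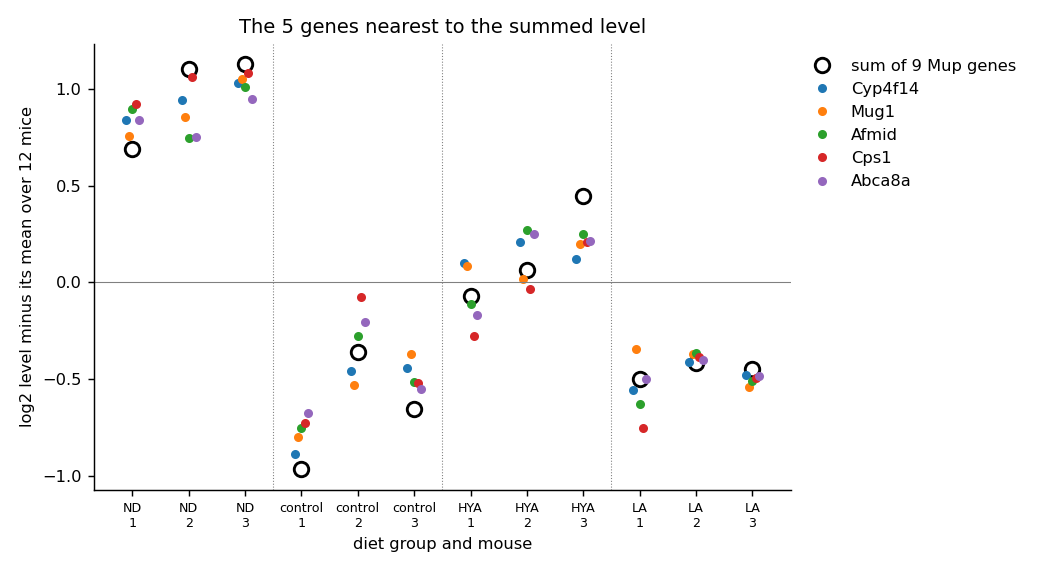
Points show the log2 level of each gene minus its mean over the 12 mice, with the family sum as open circles, for mice 1 to 3 of each diet group. The 5 genes and the sum are highest in the 3 ND mice, nearer to 0 in the HYA mice and mostly lowest in the control and LA mice.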

How the data were processed

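Liver RNA of 12 male mice was sequenced as paired ends at Novogene. The submitters' processing notes name fastp, HISAT2 2.0.5, featureCounts 1.5.0-p3 and GRCm38. Strand and the treatment of reads with several matches are not given in the sources used here. The authors deposited FPKM values for each gene in each liver, in 1 table. Their methods name TPM, but the columns sum to 342146 to 429286. Values times gene length were whole multiples of 1 step (within 0.05 of a fragment) for 100% of the values checked, which gave the fragments per gene. The check covered values of lower fragment counts only and left out *Mup3* and *Mup20* in every mouse. Counts of fragments limit precision for counting error only.

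The 11083 genes whose mean over all mice reached 1 FPKM were tested on log2(FPKM + 1) with limma 3.58.1 in R 4.3.3 (all 12 mice, trend, two-sided, Benjamini-Hochberg over all tested genes of a comparison). Calls required an adjusted p below 0.05 together with a log2 difference beyond 1 in size. The fit was tested on simulated data. The members, lists and tests were chosen with earlier results of these data known. All members were named, together with up to 3 genes of lowest p per comparison in the pathway and regulator lists, and the 5 genes nearest to the family sum. Shared windows came from GENCODE M21 transcripts and start regions from RefSeq. Alternatives were TPM, median-ratio size factors, scaling without *Mup* genes, a pseudocount of 0.1, no filter, a filter of 10 fragments, voom, fits of 2 groups, a replicate block, and leaving out each mouse.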

Additional observations from a re-analysis of the deposited data

How the results depend on the processing

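The 7 calls between control and ND-fed mice were 6 or 7 over the alternatives. By adjusted p alone they were 8, where 2115 of all 11083 genes tested were lower. Calls between LA-treated and ND-fed mice were 6 or 7. Members called between HYA-treated and control mice were 0 to 6 when a mouse was left out, and 0 both without a filter (26045 genes tested) and in a fit of the 2 groups. Over all genes, 0 to 36 were called higher and 0 to 32 lower with a mouse left out, and 4 and 7 without a filter. Between HYA-treated and LA-treated mice they were 0 to 3 with a mouse left out, 2 with voom, 4 in a fit of the 2 groups and 2 with the replicate block. Between HYA-treated and ND-fed mice the members called were 1 to 4 with a mouse left out, 1 without a filter and 5 in a fit of the 2 groups. Over all genes, 63 to 76 were called lower with a mouse left out, 69 without a filter and 75 in the fit of the 2 groups. Replicate numbers did not pair the mice (correlations of same-numbered mice from -0.40 to 0.29 over 18 pairs, 3 above 0.1), and with the replicate block no other count of members moved past 1.5 times.

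Family sums kept their direction under every alternative run. TPM gave -1.20 between LA-treated and ND-fed mice. Division by hepatocyte markers gave -1.20 between control and ND-fed, 0.41 between HYA-treated and LA-treated and -1.02 between LA-treated and ND-fed mice. TPM moved the median over all genes from -0.04 to 0.17 between control and ND-fed mice, and from 0.02 to -0.09 between HYA-treated and control mice, and the calls over all genes from 249 higher and 181 lower to 573 and 138, and from 18 and 16 to 18 and 33. *Mup20* differed by 0.059 between control and ND-fed mice with TPM.

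With a mouse left out, differences that changed sign ranged between LA-treated and control mice from -0.21 to 0.49 (*Mup1*), -1.14 to 0.99 (*Mup7*), -0.83 to 1.45 (*Mup16*) and -0.73 to 1.19 (*Mup17*), for *Mup20* from -0.31 to 0.068 between HYA-treated and control and from -0.10 to 0.15 between LA-treated and ND-fed mice, and for *Mup21* from -0.044 to 0.13 between HYA-treated and ND-fed mice. None of these was a call. The causes were not tested.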

Other observations

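Single *Mup* genes outside the 9 members stood far apart in 1 mouse. *Mup10* was at 248 FPKM in HYA-treated mouse 2 and at 0.84 to 4.84 FPKM in the other 11 mice. *Mup19* was at 187 FPKM in HYA-treated mouse 3, with 15.5 and 45.4 FPKM in the rest of that group, and *Mup8* at 36.6 FPKM in ND-fed mouse 2, with 1.73 and 3.10 FPKM in the rest. Whether these reads belong to the genes named or to near-identical copies was not tested.

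The pseudogene *Mup-ps10*, which has few fragments, was listed lowest in ND-fed mice. It was at 0.10, 0.11 and 0.10 FPKM in ND-fed mice and at 1.42, 1.77 and 1.39 in control, 1.39, 0.99 and 1.53 in HYA-treated and 1.69, 2.45 and 4.11 in LA-treated mice. These values stand for 1 fragment in each ND-fed mouse, 16 to 21 in control mice, 10 to 21 in HYA-treated mice and 20 to 51 in LA-treated mice. The gene reached the mean of 1 FPKM only through the groups on the high-fat diet, so its difference from ND-fed mice is given with no test. These 4 genes were singled out after their values were seen.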
